A study of Homo sapiens with 6 samples.

Results

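Aminoacyl-tRNA synthetases were followed in ribosome profiles of the human melanoma cell line CHL-1. The 35 genes comprise 17 that encode cytosolic enzymes, 16 that encode mitochondrial enzymes, and GARS1 and KARS1, whose genes serve both compartments. They were chosen by name and not by a cut on their values, though with earlier results of these data known. They are 35 of the 11227 genes named in any of the tables. Each gene was read from its RefSeq messenger with the most depth.

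An aminoacyl-tRNA synthetase joins an amino acid to its tRNA, and the ribosome draws on the charged tRNA for every codon it reads. When a charged tRNA runs short, uncharged tRNA activates the kinase GCN2, translation of ATF4 increases, and ATF4 is known to activate many cytosolic synthetase genes. Mitochondria charge their own tRNAs with a second set of enzymes encoded in the nucleus. EPRS1 carries glutamyl and prolyl synthetases in a single cytosolic protein, and PARS2 is the mitochondrial prolyl enzyme. Both are of particular interest here because azetidine-2-carboxylic acid (AZC) is a proline analog.

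Ribosome-protected fragments came from 6 libraries in 3 groups of 2, and 1 library of each group was labelled as having ribosomal RNA removed. The groups were CHL-1 cells given 10 mM AZC with the proteasome inhibitor MG132 (20 µM) for 20 minutes, CHL-1 cells edited with CRISPR at the small nucleolar RNA genes SNORD50A/B, and untreated parental CHL-1 cells. In all 3 groups the lysis buffer held cycloheximide, which keeps ribosomes on the messenger. The labels name no control-edited line and no cells given AZC or MG132 alone, so the agents cannot be told apart, and neither can the edit and other differences between the lines.

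The authors deposited 1 table for each group, with 100 bins over the 5′ UTR, 200 over the coding sequence and 100 over the 3′ UTR of each messenger. In units of 1000000, the tables summed to a depth of 367.3 for AZC + MG132, 586.5 for CRISPR and 473.7 for parental. The synthetases held 0.252% of the depth for AZC + MG132 and 0.264% each for CRISPR and parental. Replicates are not separated in these tables, so the differences below are those between 1 table and another, with no test and no error from replicates. The melanoma and neural crest markers SOX10, S100B and VIM were above the minimum depth in all 3 tables. MITF was above it in the CRISPR table (9.46) and below it in the AZC + MG132 (3.94) and parental (5.97) tables. PMEL and MLANA stayed below it wherever they were listed, and TYR was not listed. Of 6 markers of other cell types, PTPRC was listed at 2.26 in the CRISPR table, below the minimum, and the others were not listed.

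All 35 genes were listed in the CRISPR and parental tables and 34 in the AZC + MG132 table. A level is the normalised depth, the depth summed over the 400 bins per 1000000 of the table's total. Levels are compared between tables for the same gene and not between genes, because coding lengths were not used here. Footprint depth rises with the amount of a messenger and with its translation, and no RNA libraries were used here, so the contributions cannot be told apart. Comparisons were limited to genes whose depth exceeded, in both tables, the lower quartile over all rows (the minimum depth). PARS2 was not listed in the AZC + MG132 table and stood below this minimum in the other tables, at a level of 2.11 in the CRISPR table and 1.82 in the parental table. VARS2, the mitochondrial valyl enzyme, was below it in the AZC + MG132 table only. This left 33 of 35 genes for AZC + MG132 against parental, 34 for CRISPR against parental and 33 for CRISPR against AZC + MG132.

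Promoters are shown first, because the amino acid response acts on synthetase genes through a short DNA element that ATF4 and its partners bind. RefSeq promoter windows (GRCh38.p14, 250 bases before to 50 after a start site) were at hand for 30 of the 35 genes, all but AARS2, LARS1, VARS1, VARS2 and YARS1. The exact letters TTGCATCA, or TGATGCAA as read on the other strand, occurred in 6 of these 30 genes. Those 6 were among the 16 cytosolic or dual genes with a window, while 0 of the 14 mitochondrial genes held the letters. Over all windows, 0.866% of 35116 held them, or 1.08% of 27305 genes. The matches are given below with 10 bases on each side, read along the gene's strand, and the capitals mark the element.
AARS1: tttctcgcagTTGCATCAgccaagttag
CARS1: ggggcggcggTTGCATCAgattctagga
IARS1: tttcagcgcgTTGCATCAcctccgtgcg
MARS1: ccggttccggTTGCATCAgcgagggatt
NARS1: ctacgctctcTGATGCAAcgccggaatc
TARS1: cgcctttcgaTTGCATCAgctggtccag
They lie at chr16:70289676-70289703 (minus strand) for AARS1, chr11:3057408-3057435 (minus) for CARS1, chr9:92293693-92293720 (minus) for IARS1, chr12:57488054-57488081 (plus) for MARS1, chr18:57621805-57621832 (minus) for NARS1 and chr5:33440957-33440984 (plus) for TARS1. In AARS1 the element lies far upstream in the window, and in the other 5 genes its first base lies between 13 bases before the annotated start and 14 bases after it. With any base allowed at the position marked N (TTNCATCA, which includes the exact form), GARS1 and YARS2 were added, which made 8 of 30 genes against 4.46% of all genes. A match of letters describes the window and does not show that a factor binds there.

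After AZC with MG132, none of the 33 genes compared was 2-fold or more away from its parental level in either direction, where 3.26% of all 7279 genes were. The median log2 ratio over the 33 genes was -0.04, against -0.05 over all genes, and the central 50% of the synthetases lay between -0.17 and 0.05 where all genes lay between -0.32 and 0.21. Cytosolic genes had a median of -0.02 and mitochondrial genes one of -0.03. Of the 1914 genes whose mean level lay in the range of the cytosolic synthetases, 2.19% were past 2-fold, and the central 50% ran from -0.26 to 0.19, so the count of 0 is close to the shares of genes at large. The sign of the median over the 33 genes changed with the scaling, so none is read from it.

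**Figure D1:**
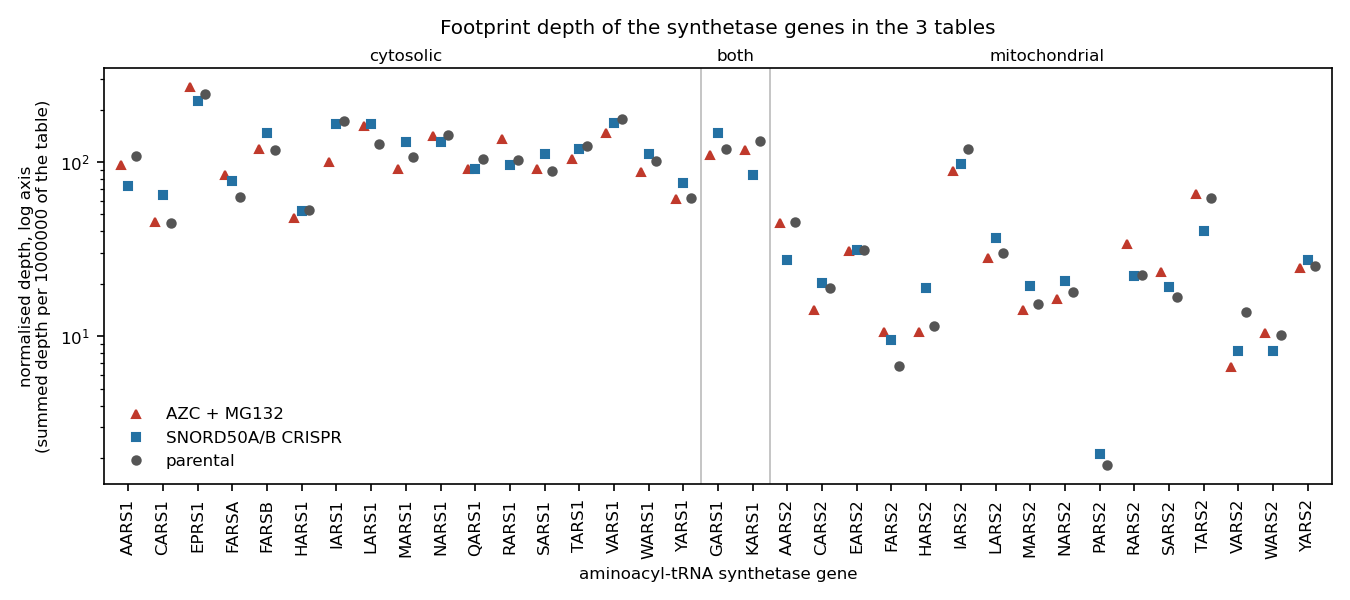
Normalised depth of each synthetase gene in the AZC + MG132 table (triangles), the CRISPR table (squares) and the parental table (circles), 1 value per table, on a log axis. Within most genes the 3 symbols lie close together. PARS2 has no value in the AZC + MG132 table and the lowest values in the other tables (2.11 in CRISPR, 1.82 in parental), and IARS1 stands at 100.5 in AZC + MG132 beside 165.5 in CRISPR and 172.6 in parental.

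Among the prolyl enzymes only EPRS1 could be compared. EPRS1 (NM_004446, chromosome 1) had a level of 270.5 in AZC + MG132, 223.2 in CRISPR and 247.001 in parental cells. The 3 levels lie within a narrow band, highest in the treated cells and lowest in the edited line. The log2 ratio of AZC + MG132 to parental was 0.13, the fourth highest of 17 cytosolic genes, whose other 16 members had a median of -0.09 and ran from -0.78 to 0.42. Taken along the coding sequence, in 4 blocks of 50 bins that were each scaled to the same bins of the whole table, the log2 ratio of EPRS1 was 0.09, -0.02, 0.35 and 0.51. The spread over these blocks is wider than the distance between EPRS1 and the median of the other cytosolic genes, 0.22. Its place among the cytosolic genes depended on the bins: ninth of 17 in the first 100 coding bins (0.04, others at a median of 0.02) and second of 17 in the last 100 (0.43, others at -0.08). No ratio could be had for PARS2.

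The largest difference among the 33 genes was in IARS1, the cytosolic isoleucyl enzyme, which sits in the multi-synthetase complex of the cytosol. IARS1 (NM_013417, chromosome 9) stood at 100.5 in AZC + MG132, 165.5 in CRISPR and 172.6 in parental cells. Its level after AZC with MG132 is the low one of the 3, at a log2 ratio of -0.78 to parental. The 4 coding blocks gave -0.65, -1.01, -0.66 and -0.86, and 12 other ways of computing the ratio gave -0.91 to -0.71. Divided into 20 windows of 10 coding bins, with depth scaled to the table's total, IARS1 was lower in the AZC + MG132 table in 19. The exception was the first window, with a log2 ratio of 1.06. Over the last 18 windows together the log2 ratio was -1.07, or -0.85 when scaled, as the blocks were, to the same bins of all rows, a scaling under which 17 of 20 windows were lower.

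Other cytosolic genes moved less. On the higher side were FARSA, the catalytic subunit of the phenylalanyl enzyme, at a log2 ratio of 0.42 (84.1 in AZC + MG132, 77.8 in CRISPR, 62.9 in parental), RARS1, the arginyl enzyme, at 0.39 (135.3, 95.8 and 103.02) and LARS1, the leucyl enzyme, at 0.35 (161.7, 164.4 and 127.1). All 4 coding blocks were above 0 in these 3 genes and in no other synthetase, 3 of 33, while 12.4% of all genes had all blocks above 0. The level of RARS1 stood apart in the treated cells, whereas that of LARS1 was as high in the edited line. VARS1, the valyl enzyme, was on the lower side at -0.27 (147.4, 167.3 and 177.1). All 4 blocks were below 0 in IARS1, WARS1 and the mitochondrial IARS2, 3 of 33, against 16.3% of all genes.

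Mitochondrial enzymes covered a similar range with sparser profiles. Over mitochondrial genes above the minimum, a median of 69.5% of the coding bins held depth in AZC + MG132, 52% in CRISPR and 75% in parental. Over the cytosolic genes the medians were 98%, 96.5% and 99.5%, and over all genes 79%, 63.5% and 87%. The CRISPR table thus had the sparsest bins although its total depth was the largest. FARS2, the phenylalanyl enzyme, had a level of 10.6 in AZC + MG132, 9.52 in CRISPR and 6.76 in parental, a log2 ratio of 0.65 for the treated cells. Its parental depth, 3201, was barely above the minimum of 3187, so its ratios to parental rest on a value at that limit. RARS2 followed at 0.59 (33.7 in AZC + MG132, 22.1 in CRISPR, 22.4 in parental) and SARS2 at 0.48 (23.3, 19.2 and 16.7). These ratios are uneven along the messenger. The 4 coding blocks of FARS2 gave 0.86, 0.94, 0.93 and -1.75, and those of RARS2 gave 0.49, -0.82, 1.83 and -0.27. IARS2, with 88.6 in AZC + MG132, 97.5 in CRISPR and 118.99 in parental, was at -0.43. Its 4 blocks were all below 0 but uneven, at -0.45, -0.61, -0.14 and -0.04, and the last 100 coding bins gave -0.10. CARS2 was at -0.42 (14.1, 20.2 and 18.9), with blocks from -1.38 to 0.41.

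At a limit of 1.5-fold, chosen after the values were seen, FARS2 and RARS2 were higher and IARS1 lower after AZC with MG132, which is 3 of 33 genes where 18% of all genes passed. The ratio of FARS2 turned to -0.28 in the last 100 coding bins. That of RARS2 stayed above 0 in its 11 recomputations but fell to 0.02 over the coding bins without the first 20 and last 20. That of IARS1 ran from -0.91 to -0.71 over its 12. The recomputations reuse the same pooled depths.

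**Figure D2:**
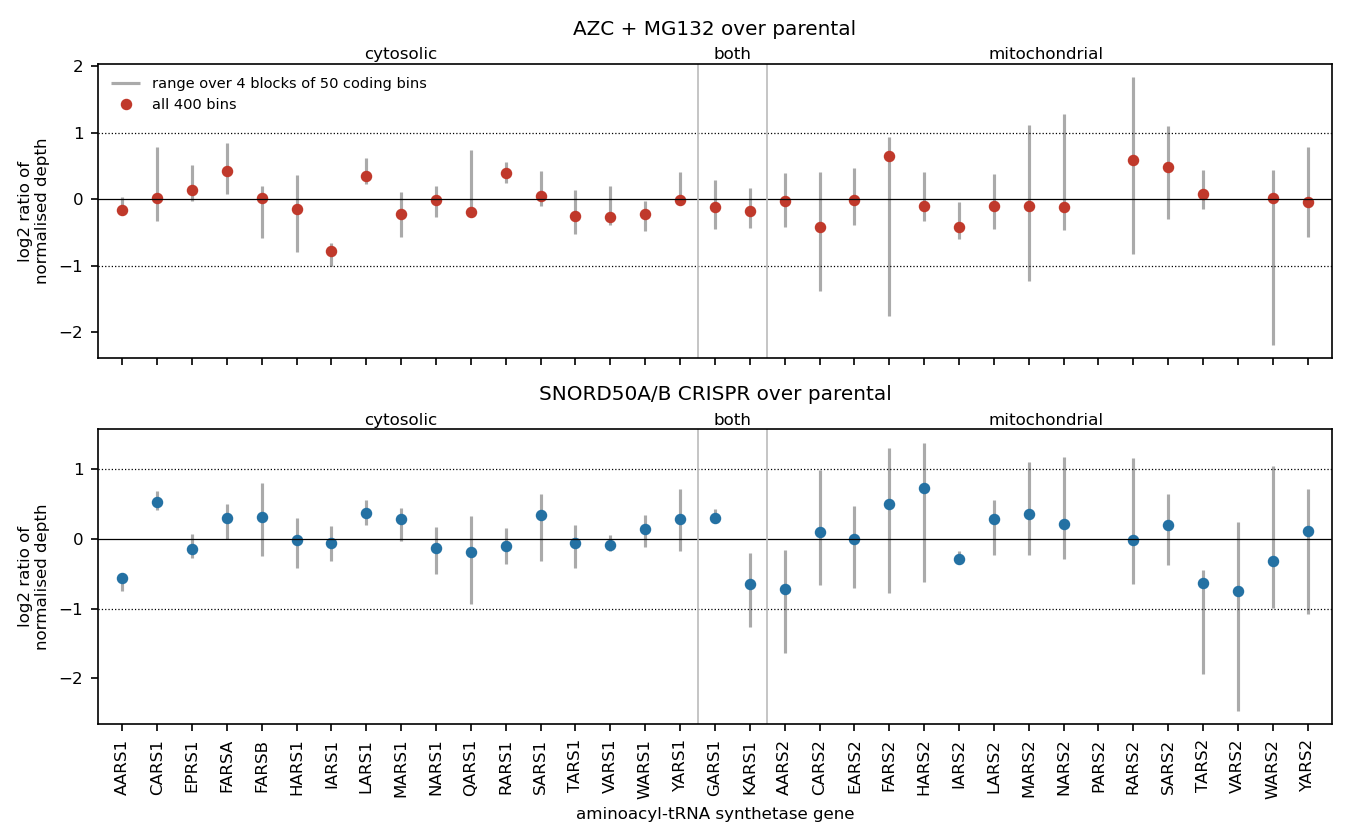
Log2 ratio of normalised depth over all 400 bins (points) for each synthetase, with the range over 4 blocks of 50 coding bins (grey lines), for AZC + MG132 over parental (upper panel) and CRISPR over parental (lower panel); dotted lines mark 2-fold. No point lies beyond 2-fold. Mitochondrial genes mostly have longer grey lines than cytosolic genes, but that of IARS2 is short in the lower panel (-0.33 to -0.18). In the upper panel the line of IARS1 runs from -1.01 to -0.65.

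Synthetases known as ATF4 targets did not differ as ATF4 did after the 20 minutes. ATF4 itself had a level of 1048 in AZC + MG132, 230.5 in CRISPR and 135.2 in parental cells, a log2 ratio of 2.96 for the treated cells. The 12 synthetases of the target list had a median log2 ratio of -0.07, and 0 of 12 were past 2-fold. Those 12 were AARS1, CARS1, EPRS1, IARS1, LARS1, MARS1, NARS1, SARS1, TARS1, WARS1, YARS1 and the dual gene GARS1. The list was taken from general knowledge and not from these tables, though earlier results of these data were known. ASNS, PSAT1 and PHGDH, amino acid enzymes known as ATF4 targets, were at 0.13, 0.18 and 0.21. SESN2, a stress-induced inhibitor of mTORC1, was at 0.82 and DDIT3, a transcription factor of the same response, at 3.05. SESN2 had a level of 11.8 in AZC + MG132, 5.36 in CRISPR (below the minimum) and 6.729 in parental. DDIT3 had levels of 57.97, 10.02 and 7.01. The lowest parental level above the minimum was 6.728, so both ratios to parental rest on a value near that limit. CHAC1, a glutathione-degrading enzyme, had a level of 27.1 in AZC + MG132 and was not listed in the other tables. The list of ATF4 with its non-synthetase targets held 9 genes, of which 6, ATF4 included, could be compared. All 6 were above 0, with a median of 0.51 that rests in part on SESN2, and 3254 of all 7279 genes were above 0. TRIB3 was below the minimum in every table, at 4.91 in AZC + MG132, 2.17 in CRISPR and 4.66 in parental. SLC7A11 was listed only in the CRISPR table, at 4.37 and below the minimum. The 6 genes with the exact promoter letters shown above had a median of -0.20 (range -0.78 to 0.01), and the 10 cytosolic or dual genes whose windows lacked them had a median of -0.05 (-0.22 to 0.42). The intervals overlap, and the lowest of the first 6 is IARS1.

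The 7 synthetases of the multi-synthetase complex (EPRS1, IARS1, KARS1, LARS1, MARS1, QARS1 and RARS1) had a median of -0.17, with values from -0.78 in IARS1 to 0.39 in RARS1. Of the scaffold proteins that hold the complex together, AIMP1 was at -0.27, AIMP2 at -0.21 and EEF1E1 at 0.49. Members of the complex therefore spread to both sides, as far as the whole cytosolic set did. By catalytic fold, the median was -0.11 over 17 class I enzymes and -0.02 over 15 class II enzymes. KARS1, one of the dual genes, stood at 117.4 in AZC + MG132, 84.6 in CRISPR and 132.3 in parental, and GARS1 at 109.6, 146.4 and 119.3. Their log2 ratios to parental in the treated cells were -0.17 and -0.12.

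Where the depth lay along the coding sequence differed as well. To measure this, the mean depth of the first 20 coding bins was divided by that of the whole coding sequence, which gives the 5′ share, and the log2 ratio of that share between tables was taken as the 5′ shift. Over the cytosolic genes the median 5′ share was 1.76 in AZC + MG132, 1.02 in CRISPR and 0.88 in parental cells. The 5′ shift after AZC with MG132 was above 0 in 15 of 16 cytosolic genes with a value, with a median of 0.88 and VARS1, at -0.13, as the exception. It was above 0 in 9 of 14 mitochondrial genes, with a median of 0.68, and in both dual genes. Over all genes, 79.2% of 7065 had a shift above 0, with a median of 0.60, so a shift of this sign is common to most messengers and is not particular to synthetases.

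Within EPRS1 the first window of 10 coding bins had a normalised depth of 26.8 in AZC + MG132, 10.6 in CRISPR and 10.7 in parental. Scaled to the table's total, the first 2 windows together were at a log2 ratio of 0.93 for the treated cells and the last 18 at -0.02. Scaled to the same bins of all rows, where the start is higher too, they were at 0.43 and 0.20. A 5′ shift of 0.84 put EPRS1 ninth of 16 cytosolic genes, beside a median of 0.92 over the other 15. By this measure the prolyl enzyme lay near the middle of the cytosolic set. Larger shifts were seen in CARS1, the cysteinyl enzyme, at 1.84 (5′ shares of 0.927 in AZC + MG132, 0.262 in CRISPR and 0.259 in parental), and in NARS1, the asparaginyl enzyme, at 1.37 (2.28, 1.35 and 0.880). FARS2 had the largest of all synthetases, 2.64 (2.64, 1.68 and 0.424), in a thinly covered messenger whose parental depth was barely above the minimum.

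**Figure D3:**
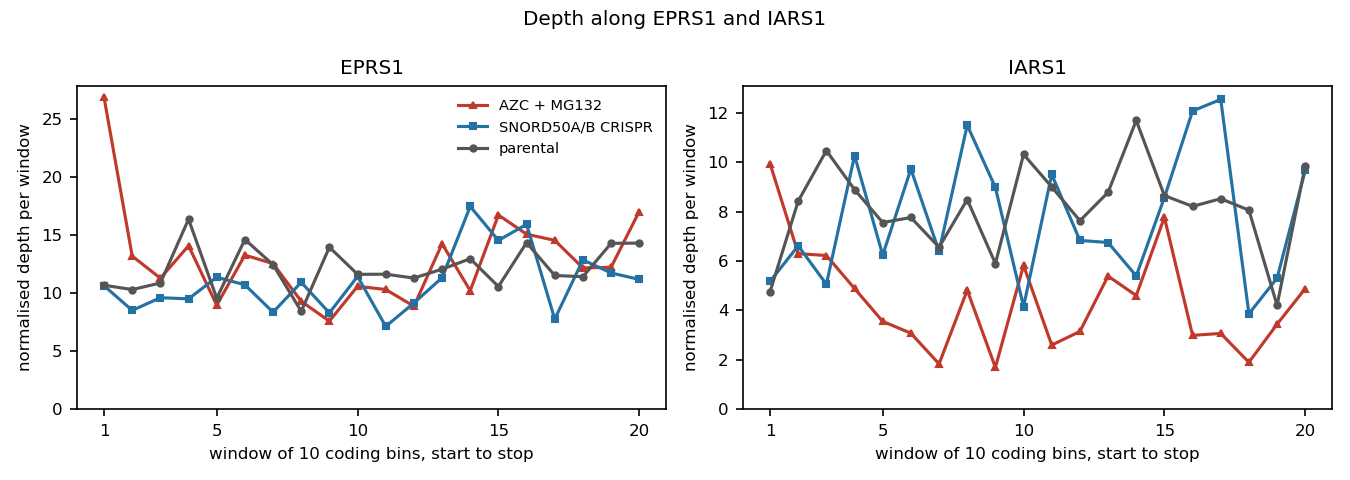
Normalised depth in 20 windows of 10 coding bins, from start to stop, for EPRS1 (left) and IARS1 (right) in the AZC + MG132 table (triangles), the CRISPR table (squares) and the parental table (circles). In EPRS1 the first window of AZC + MG132 reaches 26.8 and the other windows of the 3 tables overlap. In IARS1 the AZC + MG132 line lies below the parental line in 19 of 20 windows.

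**Figure D4:**
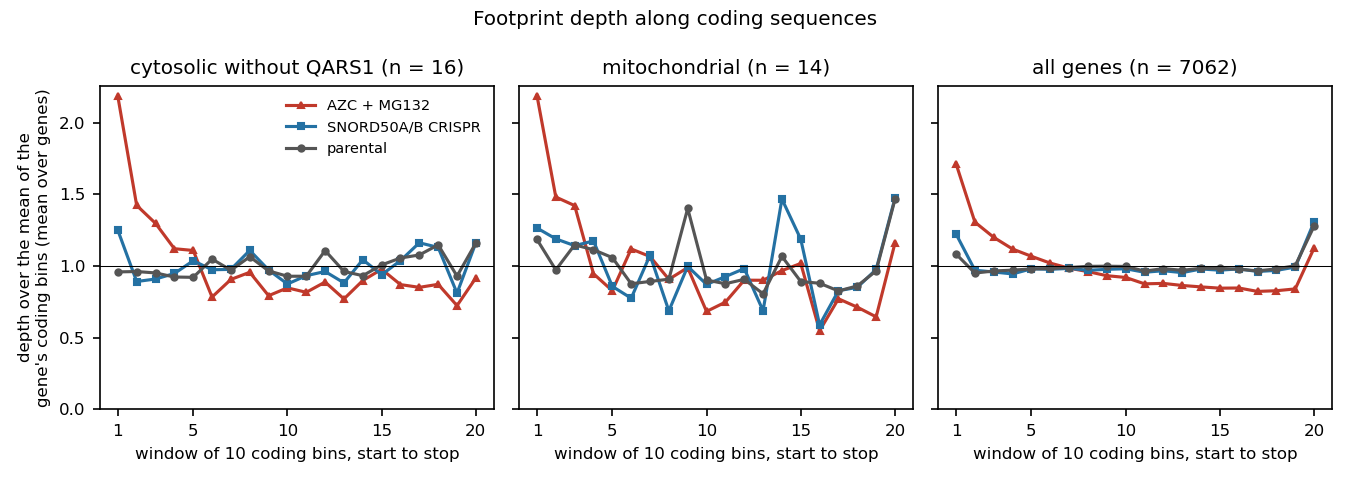
Mean over genes of the depth in windows of 10 coding bins, divided by the gene's own mean, for 16 cytosolic synthetases (QARS1 left out), 14 mitochondrial synthetases and 7062 genes, by table (AZC + MG132 triangles, CRISPR squares, parental circles). The first window is at 2.18 in AZC + MG132, 1.25 in CRISPR and 0.959 in parental over cytosolic synthetases, and at 1.71, 1.22 and 1.08 over all genes.

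Depth in the 5′ UTR bins was also higher in the treated cells. QARS1, AARS2 and TARS2 are left out of these counts, for the reason given in the next paragraph. Over the other 16 cytosolic genes the median share of depth in these bins was 6.25% in AZC + MG132, 3.45% in CRISPR and 2.15% in parental. The share was higher in the treated cells than in the parental line in 15 of 16 cytosolic genes, all but YARS1, and in 9 of 12 mitochondrial genes. Among all genes compared it was higher in 79.9%. IARS1 held 9.42% in AZC + MG132, 2.56% in CRISPR and 2.4998% in parental, and NARS1 held 11.5%, 3.61% and 2.68%. FARSB had a larger share in every table, 29.6%, 17.1% and 18.4%.

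QARS1, AARS2 and TARS2 need a separate reading. Their 5′ UTR bins held between 38.4% and 49.8% of the depth in every table, and QARS1 had its first 31 coding bins empty in all 3 tables. The series of 5′ UTR bins ran parallel to the coding bins of the same gene and table once stretched, with a correlation over bins of 0.98 for QARS1 in the AZC + MG132, CRISPR and parental tables, 0.98, 0.98 and 0.97 for AARS2, and 0.96, 0.97 and 0.96 for TARS2. Among the other synthetases the highest such value was 0.74. Of 6131 genes above the minimum in all tables, 0.799% had values over 0.9 in all 3. The bins labelled 5′ UTR in these 3 genes therefore cannot be read as untranslated sequence, and QARS1 has no 5′ shift.

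**Figure D5:**
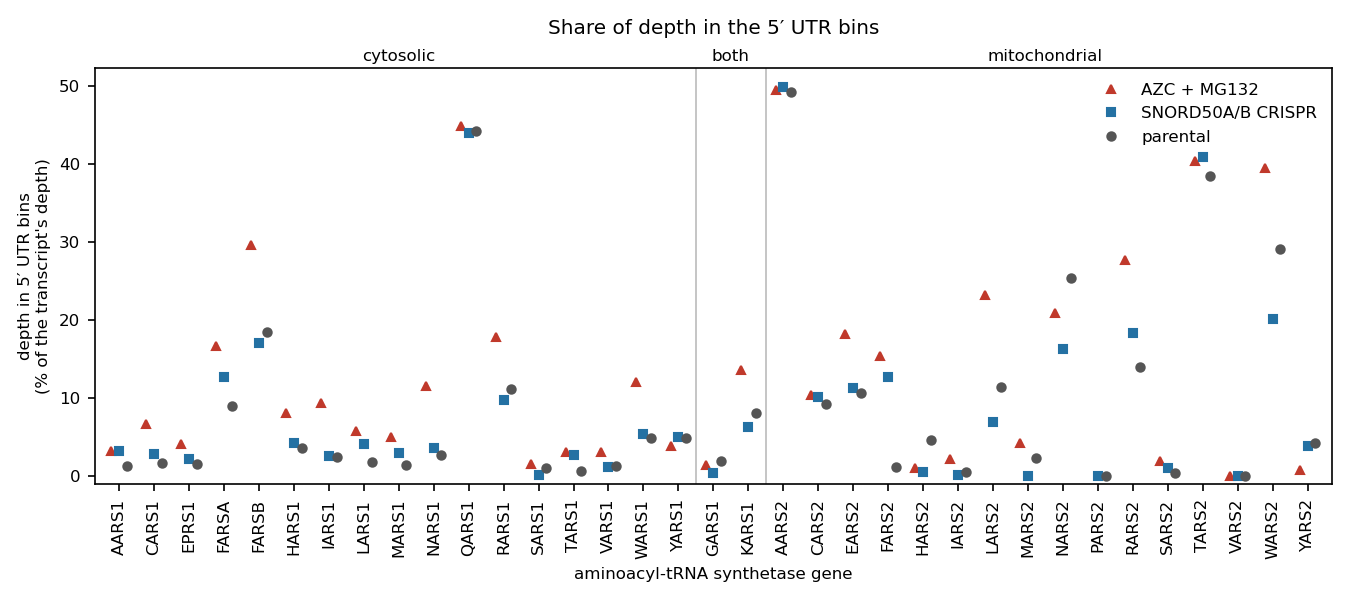
Share of each messenger's depth that lies in the 100 5′ UTR bins, as a percentage, in the AZC + MG132 table (triangles), the CRISPR table (squares) and the parental table (circles). In most cytosolic genes the triangle is highest. QARS1, AARS2 and TARS2 lie between 38.4% and 49.8% in all 3 tables, where UTR and coding bins carry the same pattern.

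In the edited line, too, none of 34 synthetases compared was 2-fold or more from its parental level, where 2.40% of all 7542 genes were. The median log2 ratio was 0.05 over the 34 genes and 0.0041 over all genes. It was -0.02 over the cytosolic and 0.10 over the mitochondrial genes. At 1.5-fold, 5 of 34 genes passed, beside 14.8% of all genes. HARS2, the mitochondrial histidyl enzyme, was higher, and VARS2, AARS2, KARS1 and TARS2 were lower.

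KARS1, the lysyl enzyme of both compartments, was at a log2 ratio of -0.65 (84.6 in CRISPR, 132.3 in parental), with blocks of -1.26, -0.79, -0.21 and -0.25 along the coding sequence. Its difference was thus larger near the start. AARS1, the cytosolic alanyl enzyme, was at -0.56 (73.2 in CRISPR, 107.9 in parental) with an even course of -0.57, -0.75, -0.49 and -0.51. Its mitochondrial counterpart AARS2 was at -0.72 (27.3 in CRISPR, 45.1 in parental), TARS2 at -0.63 (40.4 and 62.4) and VARS2 at -0.75 (8.18 and 13.7). Over coding bins alone, without the bins labelled 5′ UTR, AARS2 was at -0.71 and TARS2 at -0.80. Their courses were uneven and lowest in the last block: -0.94, -0.36, -0.16 and -1.64 in AARS2, and -0.45, -0.75, -0.50 and -1.94 in TARS2. All 4 blocks were below 0 in AARS1, KARS1, AARS2, IARS2 and TARS2, 5 of 34 genes, beside 13.1% of all genes. The blocks of VARS2 ran from -2.46 to 0.25.

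On the higher side of the edited line, HARS2 stood at 19.02 in CRISPR and 11.5 in parental, a log2 ratio of 0.73 with blocks of 0.26, -0.62, 1.38 and 1.23. CARS1 was at 0.54 (64.9 in CRISPR, 44.8 in parental), FARS2 at 0.49 (9.52 and 6.76) and LARS1 at 0.37 (164.4 and 127.1). The blocks of FARS2 were 1.30, 0.05, -0.77 and -0.42, and its ratio was -0.52 over the last 100 coding bins. CARS1, GARS1 and LARS1 were higher in all 4 blocks, as were 11% of all genes. EPRS1 was at -0.15, fifteenth of 17 cytosolic genes, beside a median of 0.06 over the other 16. Its 5′ shift was 0.02, and the median shift over the cytosolic genes was 0.08, with 11 of 16 above 0 where 56% of all genes were. TARS1 had the largest cytosolic shift of the edited line, 0.79, followed by FARSA and NARS1, both at 0.62. The 12 ATF4 target synthetases had a median of 0.21 and the 7 genes of the complex one of -0.11. The 6 genes with the exact promoter letters had a median of -0.06 (-0.56 to 0.54), with 2 of 6 above 0. The 10 cytosolic or dual genes whose windows lacked them had a median of 0.06 (-0.65 to 0.34), with 5 of 10 above 0. Of 6 other genes of tRNA charging, 5 could be compared in the edited line. They ran from 0.28 in MTFMT, which formylates the mitochondrial initiator tRNA, to 0.67 in AARSD1. AARSD1 removes wrongly joined amino acids from the tRNA of alanine. All 5 are above 0, as were 3802 of 7542 genes, but the first and last 100 coding bins had the same sign in 2 of the 5. TARS3 was below the minimum depth in all 3 tables.

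Set directly against AZC + MG132, the edited line again had 0 of 33 synthetases past 2-fold, where 6.50% of all 7219 genes were. This comparison shares its tables with those above. The median was 0.14, against 0.06 over all genes. The highest log2 ratios of CRISPR to AZC + MG132 were 0.84 in HARS2, 0.72 in IARS1, 0.53 in CARS1 and 0.52 in CARS2, and the lowest were -0.71 in TARS2, -0.70 in AARS2, -0.61 in RARS2 and -0.50 in RARS1. At 1.5-fold, 2 genes were higher and 3 lower, 5 of 33 beside 24.5% of all genes. All 4 blocks were above 0 in 6 synthetases and below 0 in 7, beside 15.5% and 14.8% of all genes. The 5′ shift of CRISPR to AZC + MG132 was above 0 in 1 of 16 cytosolic genes, beside 26.2% of all genes. EPRS1 was at -0.28, lower in all 4 blocks, and fifteenth of 17 cytosolic genes, whose other members had a median of 0.19. In the last 100 coding bins it was sixteenth of 17, at -0.46 beside a median of 0.10. AARS1 lay lower in the CRISPR table than in either of the other tables, and IARS1 lower in the AZC + MG132 table than in either of the others.

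Profiles over single bins bound how finely these messengers can be read. Between AZC + MG132 and parental the correlation over 200 coding bins had a median of 0.38 over the cytosolic genes (0.17 in NARS1 to 0.69 in FARSB) and 0.24 over the mitochondrial genes, against 0.32 over all genes. Between CRISPR and parental the medians were 0.41, 0.26 and 0.30. Bins of 1 gene share libraries and neighbouring reads, and the values are given as a description. Of the 10 genes with more than 1 listed messenger, the choice of messenger moved a log2 ratio to parental by at most 0.21, in WARS1 after AZC with MG132.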

How the data were processed

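Ribosome footprints of 6 CHL-1 libraries were used as 3 deposited tables, 1 per group. The deposited values are on a log2 scale, log2(x + 1) with 2 decimals, x being read as the depth summed over the bases of a bin. Bowtie2, TopHat2 and hg19 are named per the submitters' processing notes; settings and the pooling of libraries are not given in the sources used here. Depth was recovered as 2 to the power of the value, less 1. In coding bins the deposited value of the row above, which the values contain, was subtracted, and depths below 0.5 were set to 0. Rows were named through the RefSeq gene table of GRCh38.p14 (names only): all 35 synthetases matched, with 53 rows, while 211 rows of the AZC + MG132, 237 of the CRISPR and 219 of the parental table stayed unnamed.

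Log2 ratios were computed over the whole table with a pseudocount of 0.5 on the summed depth. The minimum was a depth of 2614 in the AZC + MG132, 3697 in the CRISPR and 3187 in the parental table. A ratio of 2-fold is a limit of size, not a test. Ratios from the 4 blocks and from the first or last 100 coding bins were scaled to the same bins of all rows, and those of 10-bin windows to the table's total unless stated. Depth counts bases and not fragments, so no counting interval was computed. The correlation of UTR with coding bins was taken at the stretch between 0.5 and 2 that gave the highest value, and this check and the 1.5-fold limit were added after values were seen.

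The genes, role lists and comparisons were chosen with earlier results of these data known. Named are EPRS1, PARS2, the dual genes, and the 4 highest and 4 lowest ratios of each comparison; others were named after their values were seen. Planned levels per coding length and protein features were not computed, since no protein or coding length was used here. The steps were tested on simulated data. Python 3.11.15, numpy 2.4.6 and pandas 2.3.3 were used.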

Additional observations from a re-analysis of the deposited data

How the results depend on the processing

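Ratios were recomputed in 12 other ways and 5′ shifts in 6. With no minimum depth, 1 gene was past 2-fold in AZC + MG132 against parental, VARS2 at -1.04. From the first 100 coding bins, 2 genes were past 2-fold in CRISPR against parental (KARS1 and VARS2) and 1 in CRISPR against AZC + MG132 (WARS2). From the last 100, there were 2 (HARS2 and TARS2) and 3 (AARS2, TARS2 and WARS2). In the other alternatives 0 synthetases passed. The log2 ratio of EPRS1 became 0.43 for AZC + MG132 against parental in the last 100 coding bins, -0.27 for CRISPR against parental in the first 100, and, for CRISPR against AZC + MG132, -0.36 over coding bins and -0.46 in the last 100. The median over the genes became -0.000186 in the first 100 bins for CRISPR against AZC + MG132. The median over 33 genes for AZC + MG132 against parental ran from -0.07 to 0.03 and changed sign in 5 of 12 alternatives. With the first 10 bins the median 5′ shift after AZC with MG132 was 1.10 and that of EPRS1 1.24. With the first 40 bins EPRS1 was at 0.35, and with bins 6 to 20 at 0.46. The causes were not tested. With no replicates, the ratio of a single gene was called moved where it changed by at least a set distance. This was the distance from the mean to either of the ratios of the first and last 100 coding bins. For a median ratio, the median of these distances over the synthetases was used. For 5′ shifts the limit was the median distance of the synthetases' shifts from their own median. That limit was 0.31 for AZC + MG132 against parental. Counts were called moved past a 1.5-fold change or on any change from 0. No paired analysis was possible because each table pools its group's libraries, and no library could be left out for the same reason. The number of distinct fragments behind a depth is unknown.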
